A study of Mus musculus with 6 samples.

Results

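Transcripts of 31 genes of the lysosome were followed, grouped by what their proteins act on: 9 of glycolipid breakdown, 7 of glycosaminoglycan breakdown, 4 of glycoprotein sugar chains, 1 of glycogen, 3 of neutral lipid and cholesterol handling, 2 of proteins, and 5 of the lysosomal membrane. They were taken by gene symbol from a table of 54532 mouse genes, and all 31 were found, each with a single entry. RNA had been sequenced from bone marrow-derived macrophages, which are macrophages derived in culture from marrow cells, of C57BL/6 mice aged 32 to 34 weeks. The XKO group (3 libraries) carried the Xbp1 deletion labelled Xbp1ΔMf, and the XWT group (3 libraries) carried the undeleted Xbp1FL/FL alleles. Cells of either genotype had received lipopolysaccharide (LPS) as a priming stimulus and then spent 48 h in wild-type primary hepatocyte-conditioned medium, so no library shows macrophages without these stimuli. The sources used here do not name the promoter that drives the deletion. They also leave unstated whether samples are separate mice or cultures, so p-values reflect a spread between samples that may be technical.

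Lysosomes break down sugars, lipids and proteins that reach them by endocytosis, phagocytosis or autophagy, and macrophages, which take up large amounts of such material, rely heavily on them. Each hydrolase cuts a particular kind of bond, so a polymer such as heparan sulfate is taken apart by several enzymes acting in turn, and inherited loss of any of them leads to storage of its substrate. Most of these enzymes are made in the endoplasmic reticulum, tagged with mannose 6-phosphate in the Golgi and carried to the lysosome by receptors. Many of their genes are known to respond to TFEB and its relatives, transcription factors that bind an E-box-like DNA element. XBP1, the factor deleted here, controls genes of protein folding and secretion in the endoplasmic reticulum.

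Promoter sequences are shown for 4 of the genes, since this E-box-like element is the best known shared feature of lysosomal promoters and these 4 include genes at both ends of the range of changes described below. Lamp1 and Sgsh were taken as genes that were called lower in XKO and hold the element. Mcoln1 and Cln3 had the highest positive fold changes of the 31 genes and were chosen after their values were seen. Both pairs thus rest on the results of the test. Each window covers 250 bases before and 50 bases after a RefSeq transcription start in build GRCm38.p6, is written 5′ to 3′ on the gene's own strand, and has each match to the letters TCACGTG, on either strand, in capitals. The windows are chr8:13158911-13159210 (plus strand) for Lamp1, chr11:119355461-119355760 (minus strand) for Sgsh, chr8:3500269-3500568 (plus strand) for Mcoln1 and chr7:126583187-126583486 (minus strand) for Cln3.
Lamp1: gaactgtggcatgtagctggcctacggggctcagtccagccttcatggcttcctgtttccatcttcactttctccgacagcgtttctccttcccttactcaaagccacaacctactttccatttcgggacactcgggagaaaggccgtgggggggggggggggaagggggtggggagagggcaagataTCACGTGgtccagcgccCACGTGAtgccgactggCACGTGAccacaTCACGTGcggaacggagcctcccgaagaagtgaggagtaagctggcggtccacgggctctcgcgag
Sgsh: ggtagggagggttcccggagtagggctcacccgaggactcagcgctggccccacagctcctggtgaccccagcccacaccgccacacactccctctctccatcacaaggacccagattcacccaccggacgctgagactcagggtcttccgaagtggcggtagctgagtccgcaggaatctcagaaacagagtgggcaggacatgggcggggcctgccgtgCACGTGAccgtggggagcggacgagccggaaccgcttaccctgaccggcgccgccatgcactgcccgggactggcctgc
Mcoln1: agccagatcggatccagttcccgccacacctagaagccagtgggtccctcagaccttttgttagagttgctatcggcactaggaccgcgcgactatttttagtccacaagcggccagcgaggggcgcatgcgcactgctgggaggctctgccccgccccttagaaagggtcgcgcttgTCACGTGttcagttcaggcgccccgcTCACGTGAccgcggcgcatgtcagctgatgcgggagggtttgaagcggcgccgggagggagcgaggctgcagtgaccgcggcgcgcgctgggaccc
Cln3: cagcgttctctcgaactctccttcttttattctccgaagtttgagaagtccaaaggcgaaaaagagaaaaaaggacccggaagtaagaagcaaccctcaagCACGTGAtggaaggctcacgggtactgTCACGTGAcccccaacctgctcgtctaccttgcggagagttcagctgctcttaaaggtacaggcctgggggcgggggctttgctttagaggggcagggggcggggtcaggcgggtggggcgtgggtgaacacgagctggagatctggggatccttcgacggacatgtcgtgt

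Lamp1 carried 4 such elements, the first letters of the matches lying 62, 45, 28 and 16 bases before the start. Sgsh carried 1 at 29 bases before it. Mcoln1 and Cln3 carried 2 each, in Cln3 at the downstream member of its pair of RefSeq starts. RefSeq promoters matched 28 of the 31 genes, and Asah1, Galns and Npc1 had no entry in the table. Of these 28 genes, 9 (32.1%) held TCACGTG on either strand (Arsa, Cln3, Gaa, Gla, Glb1, Lamp1, Mcoln1, Naglu and Sgsh), against 4.29% of 27025 genes with a promoter in the table. The shorter core CACGTG, which lies within TCACGTG, was present in the same 9 promoters (32.1%), against 8.09% of all genes. Of 2 letter strings linked to XBP1 binding, searched on both strands, TGACGTG was in 0 of the 28 (2.22% of all genes) and CCACG in 13 (46.4%, against 35.5% of all genes). A match describes the letters only and does not show that a factor binds there. The element was picked as a known feature of lysosomal promoters, so its higher share among these genes is no independent evidence for it.

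The XKO libraries held 29965384 to 30184033 counts and the XWT libraries 28354866 to 30891729. Xbp1 had 76.7, 79.3 and 76.5 CPM in XKO 1 to 3, against 158, 157 and 132 CPM in XWT 1 to 3 (CPM, counts scaled to library totals adjusted by TMM factors). These counts cover the whole gene, the exons outside any deleted stretch included, so they are a partial check of the labels. Replicates differed more among XWT than among XKO libraries, with a chi-square per gene of 2.91 to 4.82 for XKO pairs and of 20.6 to 23.6 for XWT pairs. Of 14333 genes tested across the whole table, 860 (6.00%) were called higher and 1145 (7.99%) lower in XKO by edgeR's quasi-likelihood test with Benjamini-Hochberg adjustment and a threshold of 0.05. Scaled by library size alone, 1158 (8.08%) were higher and 749 (5.23%) lower.

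The lysosomal genes were lower in XKO where they changed, and by little. In XKO 5 of 31 genes (16.1%, against 7.99% of all tested genes) fell: Lamp1, Sgsh, Gm2a, Hexa and Fuca1. None rose, that is 0 of 31 against 6.00% (edgeR; 2 had an unadjusted p under 0.05, and DESeq2 and limma-voom also called 0, against 5.46% and 6.73% of their tested genes). DESeq2 and limma-voom likewise called 5 of the 31 lower, against 7.60% and 7.76%. Called in either direction, the share of 16.1% lay near the 14.0% of all tested genes. Of the 31, 25 (80.6%) had a log2 fold change below 0, against 49.8% of all tested genes, and the median was -0.10, against 0.0014. Markers of macrophages in general leaned the same way, with 12 of 14 below 0 and a median of -0.20, and without the lysozyme gene Lyz2 11 of 13 and -0.20. Without scaling beyond library size 19 of 31 lay below 0, with a median of -0.033 when the median of all tested genes was 0.07, so that the distance between both medians was -0.10 in either case. The largest change of a member was 20.4%, and the median size of the change was 0.11 on the log2 scale, against 0.17 for all tested genes. The CPM of the groups did not overlap for 12 genes that were lower (38.7%, against 18.6% of all tested genes) and 3 that were higher in XKO (9.68%, against 17.5%), where 36.1% of all tested genes did not overlap in either direction. The calls depended on the libraries: 10 genes were lower and 2 higher without XWT 3, when 14.8% of all tested genes were lower and 14.2% higher. Without XWT 2, 2 were lower (5.09% of all genes), and 1 was lower without XWT 1 (6.61%), XKO 1 (4.09%) or XKO 3 (4.08%). Without XKO 2, 0 were lower by edgeR (3.63%). None was higher without XWT 1 (4.33%), XWT 2 (3.13%), XKO 1 (2.16%), XKO 2 (1.87%) or XKO 3 (2.04%).

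**Figure D1:**
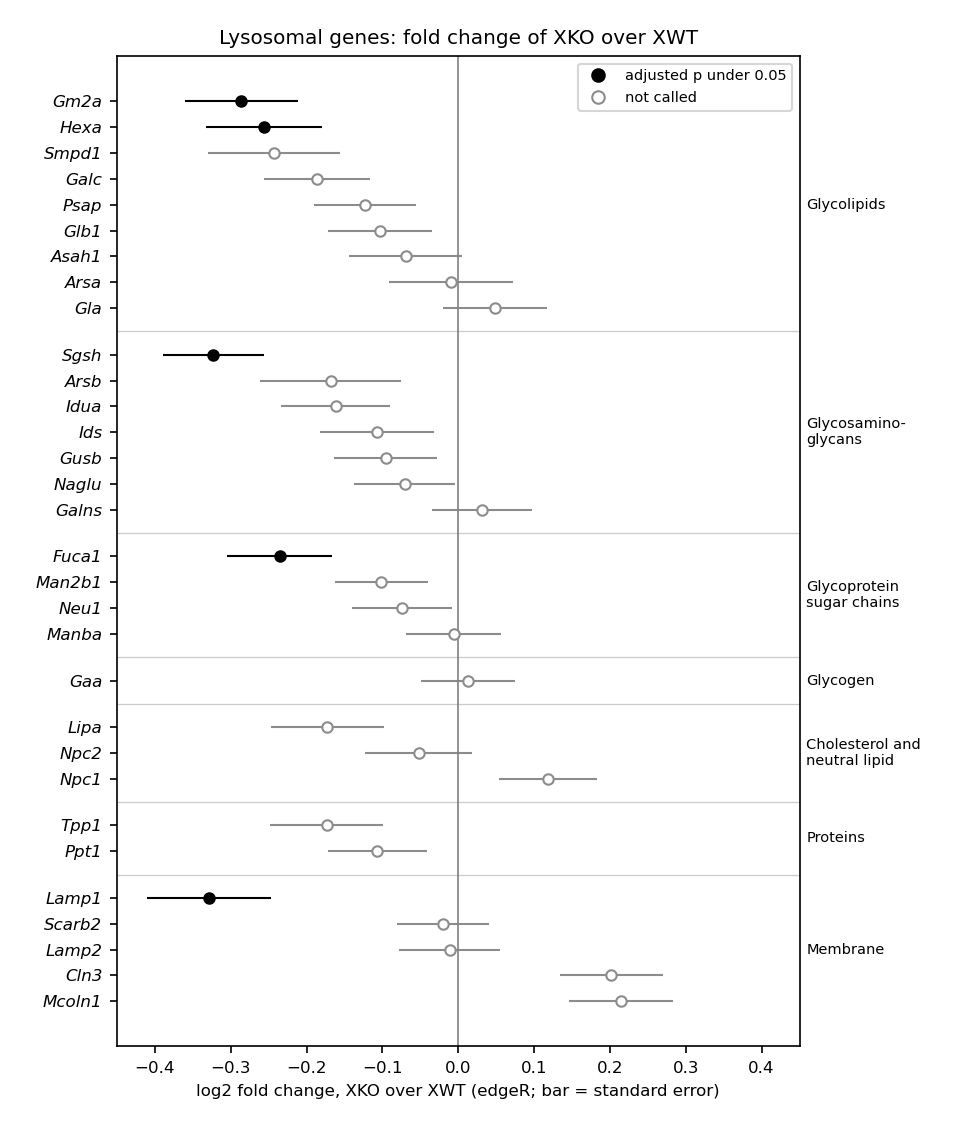
Log2 fold change of XKO over XWT (horizontal axis) for the 31 lysosomal genes by class, with standard errors (bars; edgeR, 3 libraries a group). Filled points mark the 5 genes with an adjusted p under 0.05, all lower in XKO, and the median of the 31 is -0.10.

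The 31 genes together took 1.85% of the counts in each XKO library, against 1.95%, 1.98% and 1.87% in XWT 1 to 3. Their summed level was 17983, 18048 and 18242 CPM in XKO 1 to 3, against 20533, 20468 and 18521 CPM in XWT 1 to 3. By this sum XWT 3 lay closer to the XKO libraries than to the other XWT libraries. It was the lowest of the XWT libraries for 23 of the 31 genes, against 5 for XWT 1 and 3 for XWT 2. The median coefficient of variation over the 31 genes was 2.77% among XKO and 6.66% among XWT libraries, and 27 of the 31 varied more among XWT. The same held over all tested genes, with medians of 5.28% among XKO and 10.6% among XWT libraries and 76.0% of genes varying more among XWT.

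**Figure D2:**
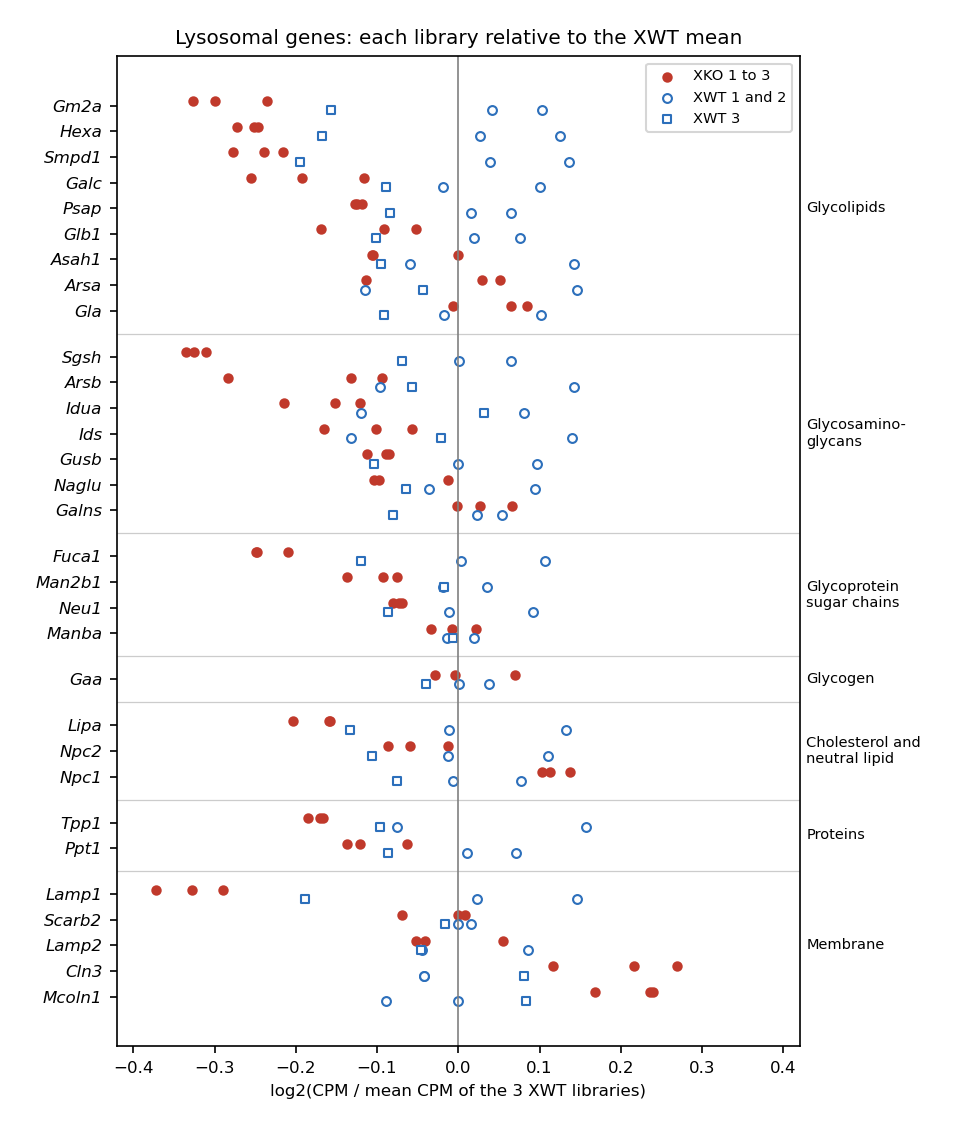
Level of each gene in each library as log2 of its CPM over the mean of the 3 XWT libraries (horizontal axis), with XKO libraries as filled points, XWT 1 and 2 as open circles and XWT 3 as open squares. XWT 3 is the lowest XWT library for 23 of the 31 genes, and the groups do not overlap for 12 genes lower and 3 higher in XKO.

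Levels between genes were compared per length, as FPKM deposited by the authors (fragments scaled to gene length and library total). Psap, the precursor of the saposins that present sphingolipids to their enzymes, stood far above the others with 2645 ± 7.78 FPKM in XKO and 2891 ± 167 FPKM in XWT (SD, n = 3 each). It also gave 40.3% of the counts of the 31 genes in XKO and 40.04% in XWT. Lipa followed with 635 ± 11.7 FPKM in XKO and 719 ± 69.3 FPKM in XWT, then Lamp1 with 508 ± 14.2 FPKM in XKO and 640 ± 76.8 FPKM in XWT (SD, n = 3 each). Among the XWT libraries the spreads of Lipa and Lamp1 overlapped, but within each library Lipa lay above Lamp1. Lipa had 789, 716 and 651 FPKM in XWT 1 to 3, against 710, 653 and 558 FPKM for Lamp1. Hexa, Npc2, Asah1 and Gusb were the other genes above 100 FPKM, 21 lay between 10 and 100 FPKM, and Mcoln1, Manba and Arsb lay below 10 FPKM, with Arsb lowest at 3.37 ± 0.23 FPKM in XKO and 3.80 ± 0.36 FPKM in XWT (SD, n = 3 each). The length used was the sum of all annotated exon bases for 29 of the 31 genes, which lowers the FPKM of genes with rarely used exons.

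**Figure D3:**
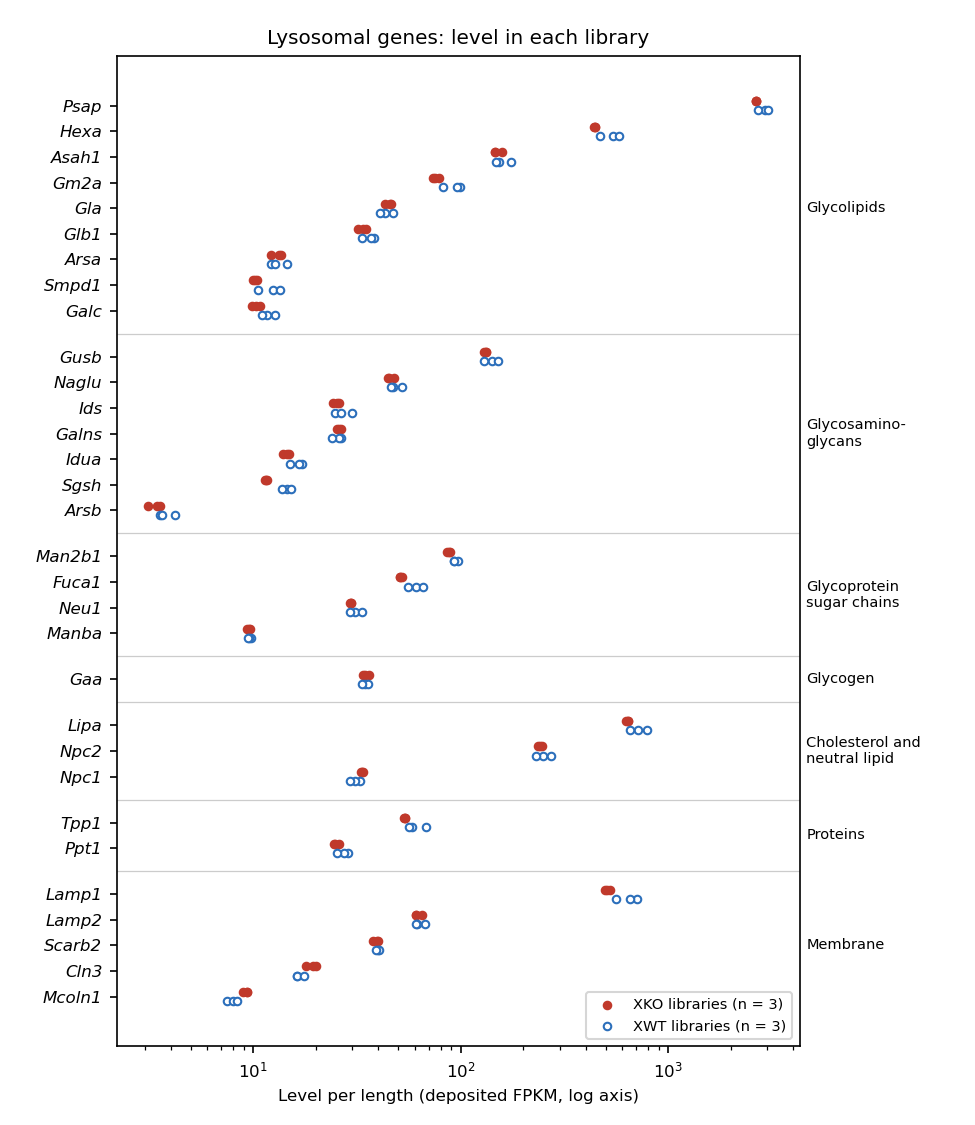
Deposited FPKM (horizontal log axis) of the 31 genes in each XKO library (filled) and each XWT library (open), grouped by class and ordered by level. Levels span from Arsb near 3.37 FPKM to Psap at 2645 FPKM in XKO, and the distance between groups is small beside the distance between genes.

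Among the 9 genes of glycolipid breakdown, genes for a pair of proteins that act together on the ganglioside GM2 fell: Hexa, the alpha subunit of beta-hexosaminidase A, and Gm2a, the activator protein that lifts GM2 out of the membrane for it. Hexa (ENSMUSG00000025232, chromosome 9 from 59539540 to 59565109, plus strand) had 891, 877 and 893 CPM in XKO 1 to 3, against 1080, 1156 and 944 CPM in XWT 1 to 3. All 3 XKO libraries lay below all XWT libraries, of which XWT 3 came closest. On the log2 scale XKO differed from XWT by -0.26, standard error 0.076 (edgeR adjusted p = 0.0406; 0.000854 to 0.170 over the alternatives). Its call ended with library size alone (log2 fold change -0.19), with length and GC trends removed (-0.15), with the replicate numbers as a block (-0.25) and when any library other than XWT 3 was left out.

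Gm2a (ENSMUSG00000000594, chromosome 11 from 55098115 to 55113029, plus strand) had 305, 310 and 324 CPM in XKO 1 to 3, against 410, 393 and 343 CPM in XWT 1 to 3. Again the groups did not overlap and XWT 3 was nearest to XKO. The difference of XKO from XWT was -0.29 on the log2 scale, standard error 0.075 (edgeR adjusted p = 0.0230; 0.000792 to 0.122 over the alternatives), and the call ended when any library other than XWT 3 was left out. Glb1, the beta-galactosidase that acts on GM1, had 101 ± 4.14 CPM in XKO and 109 ± 6.78 CPM in XWT (SD, n = 3 each) and was not called (log2 fold change -0.10).

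Psap had 7288, 7272 and 7316 CPM in XKO 1 to 3, against 8031, 8305 and 7490 CPM in XWT 1 to 3. The groups did not overlap, but the difference did not pass the test (log2 fold change -0.12, edgeR adjusted p = 0.237), except without XWT 3 (0.0155). Smpd1, the acid sphingomyelinase, had 33.5, 34.9 and 34.4 CPM in XKO 1 to 3, against 41.7, 44.6 and 35.4 CPM in XWT 1 to 3 (log2 fold change -0.24, edgeR adjusted p = 0.0782). Galc, which removes galactose from myelin-type cerebrosides, had 147, 154 and 162 CPM in XKO 1 to 3, against 188, 173 and 165 CPM in XWT 1 to 3 (log2 fold change -0.19, edgeR adjusted p = 0.0901). Both had groups that did not overlap, and both passed the test with quality weights for the libraries and without XWT 3, Smpd1 also with no filter and Galc with length and GC trends removed. The remaining 3 genes overlapped between groups. Asah1, the acid ceramidase, had 511 ± 21.6 CPM in XKO and 536 ± 48.6 CPM in XWT, Arsa, the sulfatase of sulfatides, 48.1 ± 2.92 CPM in XKO and 48.4 ± 4.60 CPM in XWT, and Gla, the alpha-galactosidase that acts on globotriaosylceramide, 147 ± 4.84 CPM in XKO and 143 ± 9.73 CPM in XWT (SD, n = 3 each). The class as a whole had a median log2 fold change of -0.12. By edgeR 2 of its 9 genes were lower (22.2%, against 7.99% of all tested genes) and 0 higher (against 6.00%). At an unadjusted p under 0.05, by DESeq2 (5.46%) and by limma-voom (6.73%) 0 were higher too. A class of 9 genes is too small to set 0 apart from such shares.

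Of the 7 genes of glycosaminoglycan breakdown, Sgsh alone was called. It encodes sulfamidase, which removes the sulfate from glucosamine in heparan sulfate. Sgsh (ENSMUSG00000005043, chromosome 11 from 119343425 to 119355536, minus strand) had 51.6, 50.8 and 51.1 CPM in XKO 1 to 3, against 64.1, 67.0 and 61.0 CPM in XWT 1 to 3. Every XKO library lay below every XWT library by more than the spread within XKO or XWT, XWT 3 included. XKO over XWT came to -0.32 on the log2 scale, standard error 0.066 (edgeR adjusted p = 0.00593; 0.000868 to 0.0537 over the alternatives). The call held in 11 of 11 alternatives that used all 6 libraries and ended only without XKO 2 (0.0537). It was the single member that passed a threshold of 0.01. Exons of Card14 on the opposite strand cover 21.6% of its exonic bases, but the count of Card14 was only 1.13% of that of Sgsh.

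Read along the order in which heparan sulfate is taken apart, the fall of Sgsh stood next to that of Hgsnat, which encodes the membrane enzyme that acetylates the freed glucosamine in the step after it and is not among the 31 genes. Hgsnat had 150, 151 and 156 CPM in XKO 1 to 3, against 312, 299 and 248 CPM in XWT 1 to 3 (log2 fold change -0.91, standard error 0.082, edgeR adjusted p = 5.45e-06; 5.05e-31 to 0.000167 over the alternatives), and it was called without each of the 6 libraries. Naglu, which then removes the acetylated sugar, had 122 ± 4.36 CPM in XKO and 129 ± 7.68 CPM in XWT (SD, n = 3 each) with overlapping groups (log2 fold change -0.07, edgeR adjusted p = 0.506). The enzymes that act on the neighbouring uronic acids were not called either. Ids, the iduronate sulfatase, had 124, 129 and 133 CPM in XKO 1 to 3, against 153, 126 and 137 CPM in XWT 1 to 3, with overlap through XWT 2 (log2 fold change -0.11, edgeR adjusted p = 0.361). It was called lower with length and GC trends removed (-0.24, adjusted p = 0.0141). Idua, the iduronidase, had 61.2 ± 2.03 CPM in XKO and 68.5 ± 4.88 CPM in XWT, with groups that all but touched (SD, n = 3 each; log2 fold change -0.16, edgeR adjusted p = 0.144), and was called without XWT 2 (0.0457). Gusb, the beta-glucuronidase and the most abundant gene of the class per length, had 601, 603 and 591 CPM in XKO 1 to 3, against 639, 683 and 595 CPM in XWT 1 to 3, with overlap through XWT 3 (log2 fold change -0.10, edgeR adjusted p = 0.367). Arsb, a sulfatase of dermatan sulfate, had 20.4 ± 1.39 CPM in XKO and 23.0 ± 2.09 CPM in XWT, and Galns, a sulfatase of keratan sulfate, 69.1 ± 1.62 CPM in XKO and 67.7 ± 3.25 CPM in XWT, both with overlapping groups (SD, n = 3 each). The class had a median of -0.11. By edgeR 1 of its 7 genes was lower (14.3%, against 7.99% of all tested genes) and 0 higher (against 6.00%). At an unadjusted p under 0.05, by DESeq2 (5.46%) and by limma-voom (6.73%) 0 were higher too. With 7 genes, 0 cannot be set apart from such shares.

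**Figure D4:**
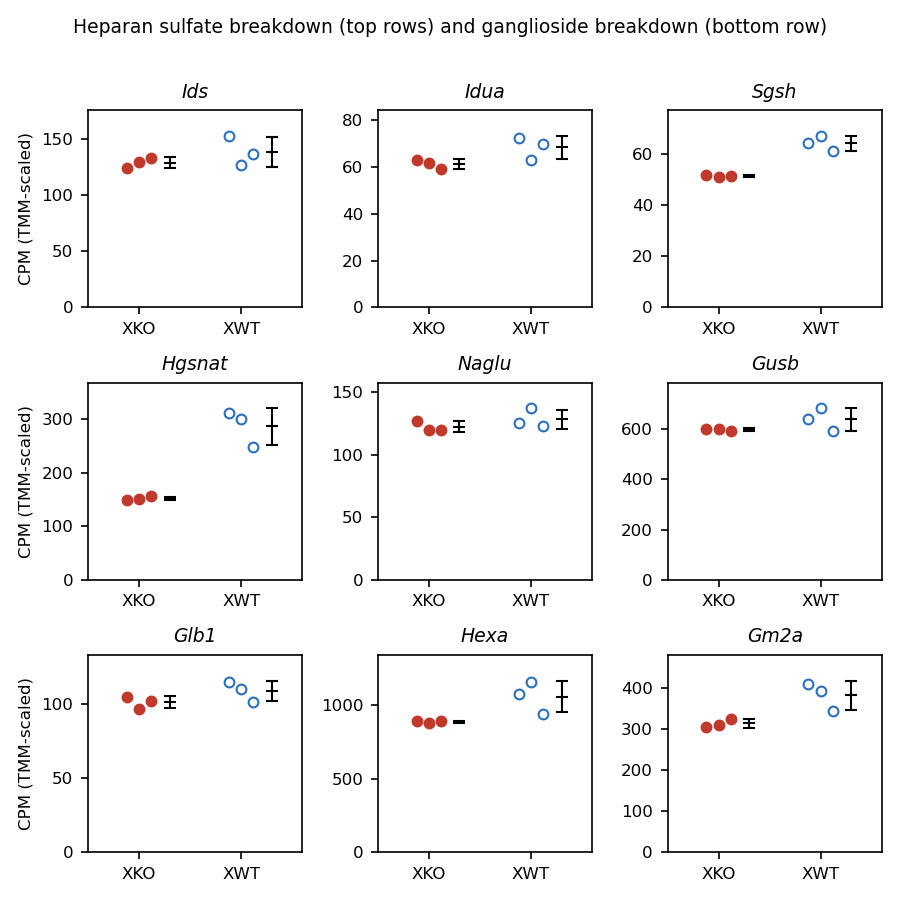
CPM (vertical axes from 0) in each XKO library (filled, left) and each XWT library (open, right) for genes of heparan sulfate breakdown (upper rows) and of ganglioside breakdown (bottom row), with the mean and SD of each group beside the points. Sgsh, Hgsnat, Hexa and Gm2a are lower in XKO with groups that do not overlap, whereas Ids, Naglu, Gusb and Glb1 overlap and Idua all but touches.

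Glycoprotein sugar chains are trimmed by 4 of the genes, of which Fuca1, the alpha-fucosidase, fell. Fuca1 (ENSMUSG00000028673, chromosome 4 from 135920735 to 135940311, plus strand) had 167, 167 and 172 CPM in XKO 1 to 3, against 199, 214 and 183 CPM in XWT 1 to 3. The groups did not overlap. On the log2 scale the fold change came to -0.24, standard error 0.069 (edgeR adjusted p = 0.0384; 0.00323 to 0.166 over the alternatives), and the call ended with library size alone (-0.17), with length and GC trends removed (-0.16) and when any library other than XWT 3 was left out. Man2b1, the alpha-mannosidase, had 710, 689 and 719 CPM in XKO 1 to 3, against 748, 777 and 749 CPM in XWT 1 to 3, which did not overlap but did not pass the test (log2 fold change -0.10, edgeR adjusted p = 0.286). Neu1, the sialidase, stood at 111 ± 0.46 CPM in XKO and 117 ± 7.29 CPM in XWT, and Manba, the beta-mannosidase, at 66.6 ± 1.29 CPM in XKO and 66.9 ± 0.80 CPM in XWT (SD, n = 3 each), both with overlapping groups. Gaa, the enzyme that degrades glycogen, had 165, 174 and 162 CPM in XKO 1 to 3, against 166, 170 and 161 CPM in XWT 1 to 3, so that the groups coincided (log2 fold change 0.01, standard error 0.062).

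The 3 genes of neutral lipid and cholesterol handling had fold changes of both signs. By edgeR 0 of the 3 were called, against 14.0% of all tested genes in either direction. Of the 3, 1 had an unadjusted p under 0.05, and DESeq2 and limma-voom called 0. Lipa, the acid lipase that frees cholesterol from its esters, had 1914, 1916 and 1855 CPM in XKO 1 to 3, against 2342, 2119 and 1948 CPM in XWT 1 to 3. All XKO libraries lay below all XWT libraries (log2 fold change -0.17, edgeR adjusted p = 0.136), and the difference passed the test with quality weights (0.0445), with length and GC trends removed (0.0306) and without XWT 3 (0.00805). Npc1, the membrane protein that exports cholesterol from the lysosome, had 359, 356 and 365 CPM in XKO 1 to 3, against 350, 330 and 315 CPM in XWT 1 to 3. Here all XKO libraries lay above all XWT libraries (log2 fold change 0.12, edgeR adjusted p = 0.232), and library size alone gave a call (0.19, adjusted p = 0.0334). Npc2, the soluble partner that hands cholesterol to it, had 1316 ± 34.2 CPM in XKO and 1364 ± 103 CPM in XWT (SD, n = 3 each) with overlapping groups. Of the pair that acts on proteins, Tpp1, a peptidase that removes tripeptides, had 277, 280 and 280 CPM in XKO 1 to 3, against 351, 299 and 294 CPM in XWT 1 to 3, without overlap (log2 fold change -0.17, edgeR adjusted p = 0.132), and passed the test without XWT 3 (0.0306). Ppt1, which removes palmitate from proteins, had 92.5 ± 2.50 CPM in XKO and 99.6 ± 5.46 CPM in XWT (SD, n = 3 each; edgeR adjusted p = 0.293). Its value is uncertain, since 3.51% of its exonic bases are shared with Cap1 on the opposite strand, whose count was 938% of that of Ppt1 and whose log2 fold change was -0.14.

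The 5 membrane genes had the widest range of fold changes of the classes, from -0.33 to 0.21 on the log2 scale. Lamp1, with Lamp2 the main glycoprotein of the lysosomal membrane, fell. Lamp1 (ENSMUSG00000031447, chromosome 8 from 13159161 to 13175338, plus strand) had 1325, 1366 and 1403 CPM in XKO 1 to 3, against 1897, 1743 and 1504 CPM in XWT 1 to 3. The groups did not overlap, and XWT 3 was again nearest to XKO. XKO over XWT was -0.33 on the log2 scale (standard error 0.082), or 0.796 times the XWT level (edgeR adjusted p = 0.0184; 0.00029 to 0.103 over the alternatives). The call held in 11 of 11 alternatives that used all 6 libraries and ended when any library other than XWT 3 was left out. Lamp2 had 581, 585 and 625 CPM in XKO 1 to 3, against 639, 584 and 583 CPM in XWT 1 to 3, so that the groups overlapped (log2 fold change -0.01, edgeR adjusted p = 0.925). With length and GC trends removed Lamp2 was called lower (-0.23, adjusted p = 0.0494). Scarb2, which carries beta-glucocerebrosidase to the lysosome, had 246 ± 7.27 CPM in XKO and 250 ± 2.75 CPM in XWT (SD, n = 3 each; log2 fold change -0.02).

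Mcoln1 and Cln3 lay on the other side of 0. Mcoln1, the cation channel through which lysosomes release calcium, had 71.0, 71.2 and 67.7 CPM in XKO 1 to 3, against 56.7, 60.3 and 63.8 CPM in XWT 1 to 3. The groups did not overlap, and the log2 fold change of 0.21 (standard error 0.069) just missed the threshold (edgeR adjusted p = 0.0529; 0.0117 to 0.214 over the alternatives). It was called higher with library size alone, with the filter of at least 5 CPM in 3 libraries, with quality weights, with length and GC trends removed and without XWT 3. Cln3, a membrane protein whose loss causes a juvenile neuronal storage disease, had 112, 117 and 105 CPM in XKO 1 to 3, against 93.9, 94.0 and 102 CPM in XWT 1 to 3. The groups were separate, with XKO 3 and XWT 3 closest (log2 fold change 0.20, standard error 0.068, edgeR adjusted p = 0.0640; 0.0150 to 0.283 over the alternatives), and a call was made with library size alone, quality weights, length and GC trends removed and without XWT 3. The Cln3 value is uncertain because 7.65% of its exonic bases are shared with Apobr on the opposite strand, whose count was 152% of that of Cln3 and whose log2 fold change was 0.04. In all, 11 of the 31 genes share exonic bases with another gene of the table, and without a stated strand setting such reads cannot be told apart. Among them, Npc1 and Idua overlap Rmc1 and Dgkq on the opposite strand, and Glb1 overlaps Tmppe on the same strand. The counts of Rmc1, Dgkq and Tmppe were 12.6%, 28.8% and 20.6% of those of their partners. Their log2 fold changes were 0.21, 0.25 and -0.08. The part of such reads in the values of Npc1, Idua and Glb1 was not tested.

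Set beside the promoter letters shown above, the 9 genes with TCACGTG had log2 fold changes on both sides of 0, with 5 below and 4 above it and a median of -0.0096. The 19 genes whose promoters lacked it had 19 values below 0 and a median of -0.12. Among them were 3 of the 5 called genes (Hexa, Gm2a and Fuca1), the other 2 being Lamp1 and Sgsh with the motif. With library size alone 4 of 9 and 15 of 19 lay below 0, with medians of 0.058 and -0.053, and with length and GC trends removed 3 of 9 and 18 of 19, with medians of 0.052 and -0.14. Without XWT 1 the medians came closer, at -0.066 with the motif and -0.10 without it, and 5 of 9 and 17 of 19 lay below 0. Without XKO 1, 4 of 9 and 16 of 19 lay below 0. This split was made after the values were seen and was not tested.

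Other genes of the lysosome, taken from 5 lists of 128 genes in the table (121 tested), held 10 that were higher and 12 that were lower by the same edgeR test (median 0.01). These are 8.26% and 9.92% of the 121, against 6.00% and 7.99% of all tested genes. Of 35 other hydrolases and luminal proteins, 6 were lower (17.1%) and 1 higher (2.86%), with a median of -0.05. Besides Hgsnat, Epdr1, a luminal protein, stood at 0.595 ± 0.106 CPM in XKO and 1.73 ± 0.20 CPM in XWT, and the phospholipase gene Pla2g15 at 233 ± 5.27 CPM in XKO and 305 ± 32.1 CPM in XWT (SD, n = 3 each). Epdr1 fell by 1.54 and Pla2g15 by 0.39 on the log2 scale (edgeR adjusted p = 0.00303 and 0.00433). Hgsnat, Epdr1 and Pla2g15 were called without each of the 6 libraries. Epdr1, however, rests on 16 to 22 counts per XKO library and 41 to 57 per XWT library. Its call was lost with the filter of at least 5 CPM in 3 libraries. The 6 became 3 without XKO 2 (3.63% of all tested genes) and 11 without XWT 3 (14.8%).

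Of 28 other membrane proteins tested, 5 were lower (17.9%, against 7.99% of all tested genes) and 2 higher (7.14%, against 6.00%), with a median of 0.0045. Laptm5, a membrane protein of blood cells, fell to 1366 ± 15.6 CPM in XKO, against 1838 ± 258 CPM in XWT (SD, n = 3 each; edgeR adjusted p = 0.00645). Sidt2 fell by 0.41 and the peptide and histidine transporter gene Slc15a4 by 0.36 on the log2 scale (edgeR adjusted p = 0.00416 and 0.00455), and these 3 were called without each of the 6 libraries. Clcn7, the lysosomal chloride and proton exchanger, rose to 298 ± 3.47 CPM in XKO, against 252 ± 0.787 CPM in XWT (SD, n = 3 each; edgeR adjusted p = 0.0171), a call that ended when any of the XKO libraries was left out. The 5 became 3 without XKO 1 (4.09% of all tested genes), XKO 2 (3.63%), XKO 3 (4.08%) or XWT 2 (5.09%). They became 9 without XWT 3, when 14.8% of all tested genes were lower. The 2 became 0 without XKO 1 (2.16% of all tested genes), XKO 2 (1.87%) or XKO 3 (2.04%). They became 1 without XWT 1 (4.33%) or XWT 2 (3.13%).

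Subunits of the V-ATPase, the proton pump that acidifies lysosomes, numbered 19 tested. By edgeR 3 were higher (15.8%, against 6.00% of all tested genes) and 0 lower (against 7.99%), with a median of 0.06. At an unadjusted p under 0.05 edgeR had 1 lower, and DESeq2 and limma-voom called 0 lower (against 7.60% and 7.76%). Atp6v0d2 stood at 72.6 ± 3.75 CPM in XKO and 45.3 ± 7.66 CPM in XWT, Tcirg1 at 541 ± 24.9 CPM in XKO and 424 ± 45.6 CPM in XWT, and Atp6v1a at 737 ± 12.4 CPM in XKO and 632 ± 37.6 CPM in XWT (SD, n = 3 each; edgeR adjusted p = 0.000857, 0.0111 and 0.0408). Atp6v0d2 and Tcirg1 are also known for their part in bone resorption by osteoclasts. Atp6v0d2 was called without each of the 6 libraries, Tcirg1 not without XKO 1 or XKO 2, and Atp6v1a only without XWT 3 among these, its call also ending with upper-quartile scaling, the replicate block and length and GC trends removed. The 3 became 1 without XKO 1 (2.16% of all tested genes) or XKO 2 (1.87%) and 7 with library size alone (8.08%). The 0 lower became 5 without XWT 3, when 14.8% of all tested genes were lower.

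In the machinery that tags and sorts the enzymes, 2 genes were higher and 1 lower of 20 tested (median 0.03). These are 10% and 5%, against 6.00% and 7.99% of all tested genes. Gnptab, a subunit of the enzyme that makes the mannose 6-phosphate tag, rose to 137 ± 2.22 CPM in XKO, against 116 ± 7.75 CPM in XWT, and Igf2r, the large receptor for the tag, to 474 ± 7.01 CPM in XKO, against 395 ± 18.5 CPM in XWT (SD, n = 3 each; edgeR adjusted p = 0.0320 and 0.0160). Ap1b1, a subunit of the adaptor that loads receptors at the Golgi, fell by 0.36 on the log2 scale (edgeR adjusted p = 0.00366) and was called without each of the 6 libraries. The calls of Gnptab and Igf2r ended when any of the XKO libraries was left out, that of Gnptab also without XWT 2. The 2 became 0 without XKO 1 (2.16% of all tested genes), XKO 2 (1.87%) or XKO 3 (2.04%) and 1 without XWT 2 (3.13%). They became 4 without XWT 3 (14.2%) or with library size alone (8.08%). The 1 became 2 without XWT 3, when 14.8% of all tested genes were lower. Among 19 transcription factors of lysosomal genes and their regulators, 2 were higher (10.5%, against 6.00% of all tested genes) and 0 lower (against 7.99%) by edgeR. Their median was -0.02. At an unadjusted p under 0.05 edgeR had 2 lower, and DESeq2 and limma-voom called 0 lower (against 7.60% and 7.76%). The 2 higher genes were Fnip1 and Fnip2, the partners of folliculin, which rose by 0.31 and 0.28 on the log2 scale (edgeR adjusted p = 0.0219 and 0.0124). Their calls ended when any of the XKO libraries was left out, that of Fnip1 also with length and GC trends removed. The 0 lower became 1 without XWT 1 (6.61% of all tested genes) and 2 without XWT 3 (14.8%). The factors themselves were not called: Tfeb had 71.2 ± 2.29 CPM in XKO and 75.7 ± 5.64 CPM in XWT, Tfe3 194 ± 1.89 CPM in XKO and 211 ± 15.0 CPM in XWT, and Mitf 142 ± 5.35 CPM in XKO and 125 ± 8.93 CPM in XWT (SD, n = 3 each). They were named after their values were seen.

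**Figure D5:**
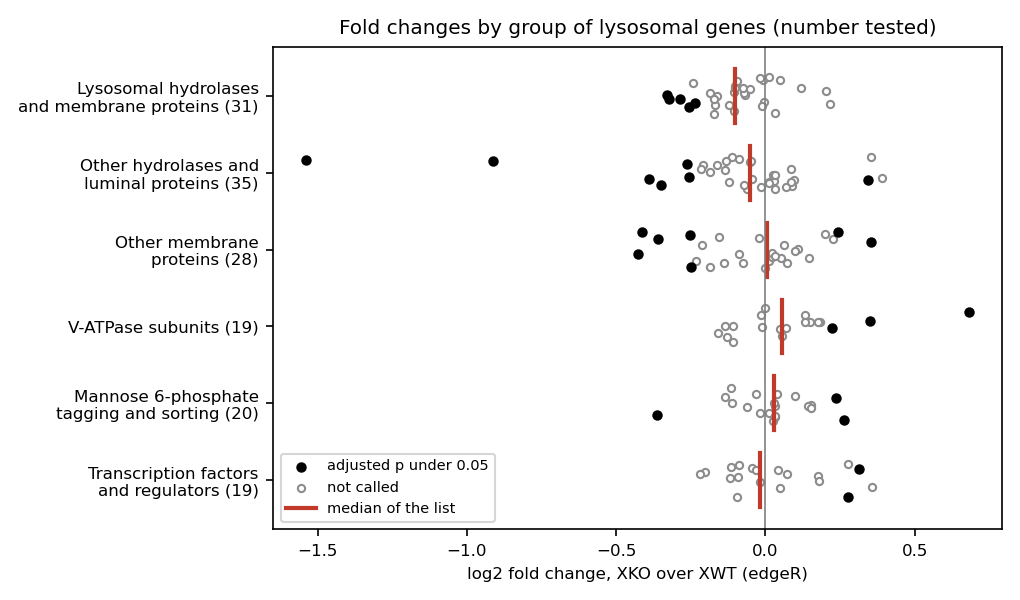
Log2 fold change of XKO over XWT (horizontal axis) of each tested gene in the 31 lysosomal genes and in 5 other lysosomal lists, filled where the adjusted p was under 0.05, with the median of each list as a bar. The 31 genes have the lowest median (-0.10) and the V-ATPase subunits the highest (0.06).

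Markers of other cells moved between the same groups. All 14 macrophage markers were detected in all libraries, with a summed level of 28202 to 30009 CPM in XKO and 43704 to 52077 CPM in XWT. Without Lyz2 the sum ran from 14343 to 15106 CPM in XKO and from 16408 to 18352 CPM in XWT. Of these 13 markers, 4 were lower (30.8%, against 7.99% of all tested genes) and 0 higher (against 6.00%) by edgeR. At an unadjusted p under 0.05 edgeR had 1 higher. All 13 tested markers of fibroblasts and stroma (of 15) were lower, with sums of 69.2 to 86.8 CPM in XKO and 778 to 874 CPM in XWT, and Lum was at 0 in all libraries but XWT 1, where it had 1 count. Within XWT the stromal sums were 778, 829 and 874 CPM in XWT 1 to 3. XWT 3 had the lowest sum over the macrophage markers and over the lysosomal genes among the XWT libraries. Markers of neutrophils and their precursors were higher in 7 of 11 tested (of 14), or 63.6%, against 6.00% of all tested genes. Their median log2 fold change was 0.89. The sums were closer, at 211 to 215 CPM in XKO and 180 to 202 CPM in XWT. These sums include markers that were not called, such as Mmp9 with means of 38.2 CPM in XKO and 40.7 CPM in XWT. Sums of 12 hepatocyte markers were 3.33 to 3.48 CPM in XKO and 4.85 to 7.79 CPM in XWT, with 10 of the 12 at 0 in all libraries. Sums of 6 endothelial markers were 92.9 to 99.1 CPM in XKO and 87.8 to 95.1 CPM in XWT. All 6 markers of lymphocytes and all 6 of dendritic cells lay under 1 CPM in every library. The part of stromal, neutrophil or hepatocyte RNA in the differences of the lysosomal genes was not tested, and in such bulk samples fewer cells of a type and less RNA per cell cannot be told apart.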

How the data were processed

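RNA was sequenced from 6 samples, 3 XKO and 3 XWT, grouped by their titles. RNA extraction was by Trizol and library preparation by a NEBNext Ultra kit, per the labels' protocols. Bowtie 0.12.2 and the builds mm8 and mm10 stand in the submitters' processing notes without a role. How reads were counted, and with which annotation and strand setting, is not stated there. Per the file headers, the authors deposited whole-number counts per gene, FPKM, group means (a scaled signal) and, for their own comparison, the log2 fold change and p-value, raw and adjusted. Coordinates are as the table gives them, and 30 of the 31 genes have the same ones in GENCODE M21 (GRCm38).

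Counts were tested with edgeR 4.0.16 in R 4.3.3 (filterByExpr, 14333 of 54532 genes kept; TMM; robust quasi-likelihood fit of XKO against XWT with 4 residual degrees of freedom), with Benjamini-Hochberg adjustment over all tested genes and a threshold of 0.05. Each standard error was taken as the absolute log2 fold change over the root of its F statistic. FPKM were used only to order levels and were not tested. Alternatives were other scalings and filters, DESeq2 1.42.0, limma 3.58.1 voom with and without quality weights, a replicate block, each library left out, removal of length and GC trends (GC known for 99.9% of tested genes), the authors' deposited table and a threshold of 0.01. The scripts were tested on simulated counts. Library totals were 28354866 to 30891729 counts, and the lowest count of a member in a library was 579. The fit pooled the spread between samples over both groups, although it was smaller among XKO libraries for most of these genes. The part of counting error in that spread was not tested. Genes are named by class. Values in every library are given for genes called in the main test or in any alternative with all 6 libraries and for the gene with the highest level of each class. Of each other list up to 4 called genes with the smallest p are named. Some genes of the other lists enter their counts but are not reported here. The 31 genes and all lists were chosen with earlier results of these data known. Promoters are from RefSeq, build GRCm38.p6.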

Additional observations from a re-analysis of the deposited data

How the results depend on the processing

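Of 527 values of single lysosomal genes under the alternatives, 477 kept their side of the threshold, 26 lost a call, 24 gained one and 0 reversed with a call. The number of lysosomal genes lower in XKO, 5 in the main test, was 3 with library size alone (5.23% of all tested genes), 8 with quality weights (9.73%) and 1 at a threshold of 0.01, and 0 to 10 with a library left out. The number higher, 0 in the main test, was 3 with library size alone (8.08%), 2 with quality weights (7.71%), 2 with length and GC trends removed (6.01%) and 1 with the filter of 5 CPM (7.05%), and 0 to 2 with a library left out. Their median log2 fold change of -0.10 was -0.033 with library size alone and -0.12 to -0.08 with a library left out. The authors' deposited table gave the same counts as DESeq2, 5 lower and 0 higher. Of the other lysosomal genes 18 were higher with library size alone (8.08% of all tested genes). With a library left out 2 to 14 of them were higher (1.87% to 14.2% of all tested genes) and 7 to 29 lower (3.63% to 14.8%). Over all genes, 262 higher and 544 lower passed a threshold of 0.01, 749 were lower with library size alone and 730 with the filter of 5 CPM, and with a library left out 274 to 2073 were higher and 532 to 2164 lower. Leaving out a library also lowers the residual degrees of freedom, and the cause of these shifts was not tested.

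Samples of the 2 groups share replicate numbers, but same-numbered samples did not deviate together (correlations of -0.08, -0.03 and -0.05, and 0 of 6 libraries correlated best with its own number). With 3 samples a group this cannot exclude a pairing, and the main test used none. With the replicate block 1068 genes were higher and 1127 lower, 0 of the lysosomal genes were higher and 4 lower, their median was -0.10, and 10 and 12 of the other lysosomal genes were higher and lower.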
